A study of Homo sapiens with 20 samples.

Results

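The lung cancer cell lines HCC366 and NCI-H1650 were compared at baseline, without knockout of ADAR. The comparison took every library of these lines that carried a control sgRNA against GFP, which were 4 of the 20 RNA-seq libraries of the series, 2 per line. ADAR encodes the RNA-editing enzyme ADAR1. The series asked how lung cancer lines respond to its knockout (KO), and counts both lines among those that depend on ADAR1. HCC366 is labelled as a lung adenosquamous carcinoma line and NCI-H1650 as a lung adenocarcinoma line. All 4 libraries came from cells in RPMI medium with serum and with no interferon added. The cells expressed Cas9 and GFP sgRNA #1 (sg1) or #2 (sg2) from a lentivirus, with RNA taken 5 days after transduction. By the study's general methods, transduced lines were kept in puromycin, blasticidin or both for at least 5 days before assays. Each library was the transduced pool of 1 sgRNA, so the sgRNAs served as replicates, and p-values here measure only the spread between these libraries, which may be technical.

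Lung epithelial tumours are usually recognised by keratins, by E-cadherin and by the claudins and desmosomal proteins that tie neighbouring cells together. Squamous cells add keratins and adhesion proteins of stratified epithelium, whereas glandular lung cells often retain NKX2-1 and surfactant genes. Cells that lose epithelial genes often carry the transcriptional repressors ZEB1 and ZEB2, which bind E-box motifs in the promoters of epithelial genes. Type I interferon induces antiviral genes such as EIF2AK2, which encodes the double-stranded RNA sensor PKR.

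The HCC366 libraries held 1270414 (sg1) and 3440707 (sg2) reads on genes, and the NCI-H1650 libraries held 4604047 and 4178438. One read was therefore worth 0.787 and 0.291 CPM (reads scaled to a library of common size) in HCC366 and 0.217 and 0.239 CPM in NCI-H1650. Levels below are TMM-scaled CPM, always given for sg1 and then sg2, and fold changes are HCC366 over NCI-H1650 with the SE of the edgeR fit. The adjusted p comes from edgeR's quasi-likelihood F-test with Benjamini-Hochberg adjustment over all genes tested. Reads with more than 1 alignment made up 50.9% and 45.3% of the HCC366 libraries and 36.2% and 40.1% of the NCI-H1650 libraries, so members of near-identical families (keratins 6 and 16, MAGEA, CTAG, HLA, ALPP) carry extra uncertainty. A gene with no read in either library of a line was set to a floor of 3 reads over that line's libraries, 0.664 CPM for HCC366 and 0.334 CPM for NCI-H1650, and folds against it are lower bounds from counting error only. In bulk RNA, fewer cells expressing a gene and less RNA per cell cannot be told apart.

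Of 14205 genes tested, 4182 (29.4%) were higher in HCC366 and 4593 (32.3%) were higher in NCI-H1650 at an adjusted p under 0.05, 61.8% in either direction. Offsets for GC content and length turned this balance, to 5019 higher in HCC366 and 3974 in NCI-H1650. These offsets also re-centred each library on its mean log2 ratio over genes, and what each step contributed was not tested. With a fold change of at least 2 as well, 2231 (15.7%) were higher in HCC366 and 2634 (18.5%) in NCI-H1650, 34.2% in all. These shares are the background for every gene list below. The levels of both libraries of a line lay clear of those of the other line for 79.8% of genes.

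The clearest difference was in epithelial identity. Of 20 epithelial markers, 19 were higher in NCI-H1650 (95%, against 32.3% of all genes) and 0 were higher in HCC366, and 15 of the 19 differed at least 2-fold. CDH1 encodes E-cadherin, the adhesion protein of epithelial junctions, and is located at chr16:68771195-68869440 (GRCh37, plus strand). It was at 8.15 and 11.2 CPM in HCC366 and 832 and 754 CPM in NCI-H1650 (log2 fold change −6.26 ± 0.18 (SE), adjusted p = 6.97e-21). EPCAM, an epithelial surface protein, was at 0.815 and 2.13 CPM in HCC366 and 106 and 109 CPM in NCI-H1650 (−5.90 ± 0.28, adjusted p = 2.08e-16). KRT19, a keratin of simple epithelia at chr17:39679869-39684560 (minus strand), had no read in HCC366 and 397 and 539.9 CPM in NCI-H1650, at least 706-fold lower in HCC366 (adjusted p = 2.27e-19). Both HCC366 libraries lay far below both NCI-H1650 libraries for all of these genes. GRHL2, a transcription factor that maintains epithelial genes, had no read in HCC366 and 197 and 187 CPM in NCI-H1650 (at least 289-fold, adjusted p = 1.58e-18). RAB25, a small GTPase of epithelial vesicle transport, had none in HCC366 and 31.5 and 37.7 CPM in NCI-H1650 (at least 52.1-fold, adjusted p = 2.77e-12).

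HCC366 nevertheless carried keratins of simple epithelium, although 10 of 13 keratins tested were higher in NCI-H1650 and 1 in HCC366. KRT7 was at 1411 and 1344 CPM in HCC366 and 1720.1 and 1782 CPM in NCI-H1650, a small difference (−0.35 ± 0.11, adjusted p = 0.00625). It did not pass with the offsets for GC content and length, which also re-centre libraries (−0.09, adjusted p = 0.485). KRT8 stood at 2024 and 1879 against 2937 and 2436 CPM, and KRT18, the partner of KRT8 in the filament and the only marker of the 20 that did not pass, at 1021 and 1001 against 1226 and 1045 CPM (adjusted p = 0.198). Scaled by the merged length of all annotated exons of a gene (CPM per kilobase), KRT7, KRT8 and KRT18 were at 353 and 336, 294 and 273, and 333 and 326 in HCC366. KRT19 was at 170.1 and 231 on the same scale in NCI-H1650. The HCC366 libraries thus held 3 defining epithelial keratins at high level and lacked or nearly lacked CDH1, EPCAM, KRT19 and GRHL2, so the epithelial description of the line held for part of the marker list. The plot of marker levels shows this split within the epithelial list.

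**Figure D1:**
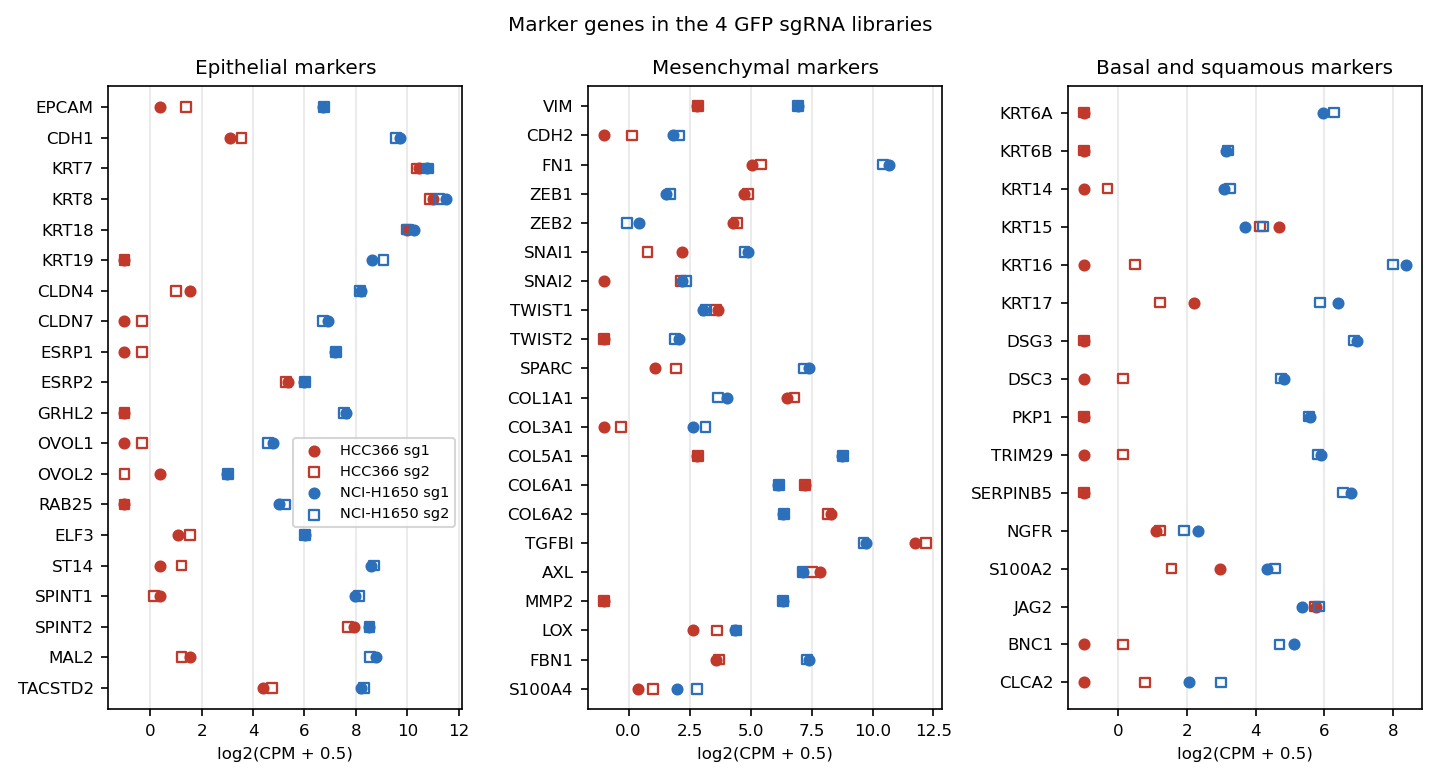
Levels of the tested epithelial, mesenchymal and basal and squamous markers, as log2(CPM + 0.5), with 1 point per library (filled circles sg1, open squares sg2, red HCC366, blue NCI-H1650). HCC366 points sit at or near the floor for KRT19, GRHL2, RAB25, MMP2 and DSG3 and lie beside the NCI-H1650 points for KRT7, KRT8 and KRT18.

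The E-box CACCTG, a motif known to be bound by ZEB1 and ZEB2, was searched for on both strands (CACCTG and CAGGTG) in promoters from 250 bases before to 50 after the start (RefSeq, GRCh38.p14). Promoters matched 6 of the 20 epithelial markers, of which 2 held the motif (33.3%), against 7231 of all 35116 promoters (20.6%). The 2 promoters with a match and 3 of the 4 without are shown, with E-boxes in capitals, because their genes were all far lower in HCC366, which KRT8, the remaining one, was not.
RAB25: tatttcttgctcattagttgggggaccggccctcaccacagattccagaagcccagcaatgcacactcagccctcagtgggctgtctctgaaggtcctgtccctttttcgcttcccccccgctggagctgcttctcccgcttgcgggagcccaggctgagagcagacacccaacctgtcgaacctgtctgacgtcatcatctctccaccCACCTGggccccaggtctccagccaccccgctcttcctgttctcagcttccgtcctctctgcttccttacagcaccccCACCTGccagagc
ELF3: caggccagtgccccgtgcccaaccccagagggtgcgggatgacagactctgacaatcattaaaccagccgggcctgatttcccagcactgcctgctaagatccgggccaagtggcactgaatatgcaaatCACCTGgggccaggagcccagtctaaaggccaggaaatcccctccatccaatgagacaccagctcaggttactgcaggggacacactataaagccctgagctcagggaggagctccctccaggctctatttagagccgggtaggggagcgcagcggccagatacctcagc
CLDN7: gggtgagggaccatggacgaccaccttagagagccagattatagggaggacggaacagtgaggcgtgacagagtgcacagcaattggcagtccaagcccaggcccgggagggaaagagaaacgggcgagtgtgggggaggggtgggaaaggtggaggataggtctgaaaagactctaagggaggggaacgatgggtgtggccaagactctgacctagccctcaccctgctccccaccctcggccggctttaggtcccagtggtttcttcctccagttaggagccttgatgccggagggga
CLDN4: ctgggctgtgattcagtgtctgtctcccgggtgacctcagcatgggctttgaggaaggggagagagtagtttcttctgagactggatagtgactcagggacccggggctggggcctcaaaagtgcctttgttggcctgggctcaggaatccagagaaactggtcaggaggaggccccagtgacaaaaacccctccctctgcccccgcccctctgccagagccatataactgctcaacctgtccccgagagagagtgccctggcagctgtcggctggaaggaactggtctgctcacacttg
SPINT1: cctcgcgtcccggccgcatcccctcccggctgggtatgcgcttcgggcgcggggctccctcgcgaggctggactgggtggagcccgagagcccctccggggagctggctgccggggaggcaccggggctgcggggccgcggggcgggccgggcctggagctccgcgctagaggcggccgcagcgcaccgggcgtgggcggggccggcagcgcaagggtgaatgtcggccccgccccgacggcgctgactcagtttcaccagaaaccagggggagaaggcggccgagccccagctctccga
RAB25 (chr1:156060910-156061209, plus strand) had matches starting at −41 and 38 from the start site, and ELF3 (chr1:202010337-202010636, plus strand) had 1 at −120. CLDN7 (chr17:7263164-7263463, minus strand), CLDN4 (chr7:73830746-73831045, plus strand) and SPINT1 (chr15:40843798-40844097, plus strand) had none of these letters in the window. ELF3, an epithelial transcription factor, was at 1.63 and 2.43 against 64.01 and 64.9 CPM (−4.84 ± 0.29, adjusted p = 2.53e-14). CLDN4, a tight junction protein, was at 2.45 and 1.52 against 291 and 285 CPM (−7.31 ± 0.24, adjusted p = 1.06e-19). CLDN7, of the same family, had 1 read over both HCC366 libraries and 122 and 104 CPM in NCI-H1650 (ratio 512, 95% counting interval 91.7 to 20254). SPINT1, a membrane-bound inhibitor of serine proteases, had 3 reads over the HCC366 libraries and 251 and 277 CPM in NCI-H1650 (ratio 397, 95% counting interval 136 to 1926). All 5 genes were chosen for being lower in HCC366, so they cannot show whether a match goes with a lower level.

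Junction genes followed the epithelial list, with which they share CDH1, CLDN4 and CLDN7. Of 14 cadherins and desmosomal genes tested, 13 were higher in NCI-H1650 and 0 in HCC366. DSG3, a desmosomal cadherin of stratified epithelium, had no read in HCC366 and 124 and 115 CPM in NCI-H1650 (at least 180.2-fold, adjusted p = 5.36e-17), and PKP1, a desmosomal plaque protein, had none against 47.3 and 46.3 CPM (at least 70.5-fold). The plaque proteins DSP and JUP were present in both lines, at 264 and 262 against 1242 and 1072 CPM and 62.8 and 51.9 against 833 and 753 CPM. Of 15 tight junction genes, 9 were higher in NCI-H1650 and 2 in HCC366. CLDN1, a claudin, went the other way from CLDN4 and CLDN7, with 403 and 427 CPM in HCC366 and 121 and 101.1 CPM in NCI-H1650 (1.90 ± 0.13, adjusted p = 2.93e-13). MARVELD3, a junctional membrane protein, had 1 read in HCC366 and 47.3 and 48.4 CPM in NCI-H1650 (ratio 216, 95% counting interval 38.6 to 8555).

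Integrins and laminins, which bind cells to the basement membrane, differed in both directions: 10 of 25 were higher in HCC366 and 13 in NCI-H1650. ITGA3, a laminin receptor subunit, was at 2367 and 2578 CPM in HCC366 and 534 and 603 CPM in NCI-H1650 (2.12 ± 0.11, adjusted p = 3.84e-15). LAMA3, a laminin chain of epithelial basement membranes, was lower in HCC366, at 22.8 and 17.3 against 665 and 523 CPM (−4.96 ± 0.18, adjusted p = 6.45e-19). ITGA4, a receptor subunit better known from blood cells, had 1 read in HCC366 and 107 and 105 CPM in NCI-H1650 (ratio 479, 95% counting interval 85.7 to 18921), and ITGA2, a collagen receptor subunit, was at 66.1 and 66.2 against 535 and 441 CPM (−2.88 ± 0.14, adjusted p = 5.13e-16). ITGB3 was at 20.4 and 15.5 against 1.498 and 0.93 CPM (3.76 ± 0.39, adjusted p = 3.97e-09).

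Mesenchymal markers differed in both directions. Of 21 mesenchymal markers tested, 7 were higher in HCC366 and 12 in NCI-H1650. ZEB1 was at 26.1 and 29.5 CPM in HCC366 and 2.35 and 2.79 CPM in NCI-H1650 (3.45 ± 0.30, adjusted p = 9.05e-11), and ZEB2 at 18.8 and 21.3 against 0.856 and 0.465 CPM (4.86 ± 0.42, adjusted p = 8.12e-11). COL1A1, a chain of type I collagen, was at 89.7 and 111 against 15.8 and 12.1 CPM (2.87 ± 0.18, adjusted p = 6.4e-14). For these genes both HCC366 libraries lay above both NCI-H1650 libraries. VIM, the mesenchymal filament protein vimentin, was at 6.52 and 6.68 CPM in HCC366 and 123 and 123 CPM in NCI-H1650 (−4.20 ± 0.21, adjusted p = 5.49e-16). Before TMM scaling, VIM was between 5.37 and 6.82 CPM in the 4 HCC366 libraries of the series and between 124.9 and 2562 CPM in the 16 libraries of the other lines. MMP2, a matrix metalloproteinase, had no read in HCC366 and 79.6 and 79.8 CPM in NCI-H1650 (at least 120.1-fold). COL5A1, a fibrillar collagen chain, was at 6.52 and 6.68 against 426 and 438 CPM (−6.02 ± 0.19, adjusted p = 4.12e-20), and SPARC, a matrix glycoprotein, at 1.63 and 3.34 against 168 and 144 CPM (−5.75 ± 0.25, adjusted p = 2.85e-17). FN1, fibronectin, was at 32.6 and 42.8 against 1651 and 1378 CPM. TGFBI, a secreted matrix protein induced by TGF-beta, was at 3419 and 4700.4 against 847 and 794 CPM. Each line thus held its own part of the mesenchymal list, and HCC366 was low for CDH1 and VIM together.

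Markers of the labelled histologies did not follow the labels. Of 16 basal and squamous markers tested, 13 were higher in NCI-H1650, the adenocarcinoma line, and 0 in HCC366, the adenosquamous line. SERPINB5, a serpin of squamous epithelium, had no read in HCC366 and 109 and 92.1 CPM in NCI-H1650 (at least 152-fold, adjusted p = 3.87e-16). KRT6A had none against 61.9 and 76.96 CPM (at least 105-fold), and KRT16, a keratin of activated squamous cells, had 3 reads in HCC366 against 331 and 254 CPM (ratio 443, 95% counting interval 151 to 2148). Defining squamous genes were near 0 in both lines: TP63 was at 0.815 and 2.13 CPM in HCC366 and 0.856 and 2.33 CPM in NCI-H1650, and KRT5 at 0.815 and 0 and 3.21 and 2.33 CPM, both too low to be tested. In all, 7 members of the list were too low to be tested. Of 17 keratinocyte differentiation markers, 7 were tested and 6 were higher in NCI-H1650, among them LYPD3, with no read against 63.6 and 62.3 CPM, and IVL, the cornified envelope protein involucrin, with none against 13.7 and 14.2 CPM. The S100 genes, calcium-binding proteins many of which mark squamous epithelium, gave 8 of 10 higher in NCI-H1650 and 0 in HCC366. S100A14 and S100A9 had no read in HCC366 and stood at 92.5 and 88.4 and at 62.7 and 92.1 CPM in NCI-H1650.

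Glandular lung genes differed in both directions. NKX2-1, the lung lineage factor, had no read in any of the 4 libraries, and 5 of 15 alveolar markers were tested, with 2 higher in each line. ABCA3, the lipid transporter of lamellar bodies, was at 78.3 and 90.5 CPM in HCC366 and 8.35 and 10.2 CPM in NCI-H1650 (3.21 ± 0.19, adjusted p = 2.06e-14), and LPCAT1, an enzyme of surfactant lipid synthesis, at 80.7 and 73.5 against 144 and 177 CPM (−1.07 ± 0.14, adjusted p = 1.84e-07). Among airway secretory markers, 5 of 17 were tested, 4 higher in NCI-H1650 and 1 in HCC366. SLPI, a secreted protease inhibitor, was at 30.2 and 70.8 against 467 and 405 CPM (−2.96 ± 0.19, adjusted p = 9.74e-14), and LCN2, an iron-binding secreted protein, had no read against 16.3 and 16.7 CPM. Mucins and CEACAMs gave 5 of 6 higher in NCI-H1650 and 1 in HCC366, with MUC1 at 2.45 and 7.895 against 24.8 and 32.1 CPM (−2.16 ± 0.30, adjusted p = 4.42e-07, or −3.50 without HCC366 sg2). Of the neuroendocrine markers 3 of 6 were higher in HCC366 and 2 in NCI-H1650. UCHL1, a neuronal deubiquitinase, was at 188 and 149 CPM in HCC366 and 4.71 and 3.95 CPM in NCI-H1650 (5.23 ± 0.20, adjusted p = 2.78e-18). CHGA, of the same list, stood the other way, at 4.72 and 3.78 against 16.7 and 12.9 CPM before TMM scaling. NEUROD1 and INSM1, which define neuroendocrine cells, had no read in the 4 libraries. None of 17 gut and liver markers was high enough to be tested. Blood cell markers gave 2 of 3 tested higher in HCC366 and 1 in NCI-H1650, and endothelial markers 1 of 1 in NCI-H1650. CSF1R, the macrophage growth factor receptor, had 1 read in HCC366 and 86.1 and 71.6 CPM in NCI-H1650 (ratio 358, 95% counting interval 63.98 to 14146). CD14 and ITGAM, of the same list, stood the other way at low levels. In CPM per kilobase, CD14 was at 1.49 and 5.35 against 0.65 and 1.55, and ITGAM at 1.43 and 1.17 against 0.0753 and 0.327. PTPRC and CD3E, which define blood cells, were between 0 and 0.642 CPM in the 4 libraries.

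Transcription factors of lung and epithelial development were mostly higher in NCI-H1650, with 22 of 30 tested, against 3 in HCC366. GATA3, an epithelial lineage factor, was at 0.815 and 1.82 CPM in HCC366 and 58.4 and 62.8 CPM in NCI-H1650 (−5.26 ± 0.31, adjusted p = 3.33e-14). IRX2 and TBX3, developmental homeobox and T-box factors, had no read in HCC366 and stood at 42.2 and 38.1 and at 39.2 and 36.97 CPM in NCI-H1650. PAX8, a factor of kidney, thyroid and Müllerian tissue, was at 42.4 and 46.8 CPM in HCC366 and 0.428 and 2.33 CPM in NCI-H1650 (5.04 ± 0.33, adjusted p = 2.95e-13), and RUNX3 at 92.97 and 95.7 against 16.1 and 23.3 CPM (2.27 ± 0.17, adjusted p = 5.1e-12). WT1 and TBX18, factors of mesothelial and urogenital development, stood at 39.1 and 51.3 and at 55.5 and 70.4 CPM in HCC366 with no read in NCI-H1650 (at least 135-fold and 188-fold). Of 25 HOX genes tested, 11 were higher in HCC366 and 4 in NCI-H1650, with HOXB6 at 10.6 and 13.7 against 1.498 and 0.93 CPM (3.33 ± 0.42, adjusted p = 8.8e-08) and HOXC13 at 4.89 and 7.59 against 19.7 and 22.3 CPM (−1.62 ± 0.28, adjusted p = 1.61e-05).

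Some genes had no read in 1 of the lines. Among protein-coding genes, 142 had no read in either HCC366 library while at 10 CPM or more in both NCI-H1650 libraries, and 25 showed the reverse. A gene at 10 CPM would be expected to give 45.2 reads over both HCC366 libraries and 89.7 reads over both NCI-H1650 libraries. In the ADAR KO libraries of the same line, 135 of the 142 and 20 of the 25 had at most 3 reads in all. The genes with the largest differences were all of this kind but C1QTNF1, a secreted protein of the C1q family, which was at 512 and 428 CPM in HCC366 and had 1 read in NCI-H1650 (ratio 4046, 95% counting interval 725 to 159880). Besides those named elsewhere, the 12 genes with the largest difference toward NCI-H1650 included MYH14, a non-muscle myosin (365 and 339.9 CPM), ABCA1, the cholesterol exporter (199 and 211 CPM), INA, a neuronal filament protein (204 and 189 CPM), BASP1 (204 and 165 CPM), ALPP, placental alkaline phosphatase (149 and 134 CPM), and SPINK6, a kallikrein inhibitor (133 and 126 CPM). SFXN1, a mitochondrial serine carrier, had no read in the 4 HCC366 libraries of the series. Before TMM scaling, SFXN1 was between 91.6 and 182 CPM in the 16 others. The 12 toward HCC366 included NLRP2 (81.5 and 82.9 CPM), the neuroligin NLGN4X (66.1 and 70.8 CPM), the piRNA pathway gene GTSF1 (66.9 and 56.5 CPM), UGT8 (44.9 and 46.2 CPM), AFF3 (47.3 and 44.3 CPM) and FAM9C (40.8 and 44.9 CPM), all with no read in NCI-H1650.

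Cancer-testis genes, normally silent outside the germ line, were among them. Of 25 listed, 9 were tested, 6 were higher in HCC366 and 2 in NCI-H1650. MAGEA4 was at 294 and 313 CPM in HCC366 with no read in NCI-H1650 (at least 908-fold, adjusted p = 6.01e-21). CTAG2 and MAGEA6 were at 93.8 and 97.2 and at 88.9 and 94.1 CPM in HCC366 and also had no read in NCI-H1650. PRAME, another such antigen, was lower in HCC366, at 36.7 and 46.5 against 123 and 126 CPM (−1.53 ± 0.15, adjusted p = 9.09e-10). In the other lines, MAGEA4 did not exceed 16.6 CPM in any library, against 284 to 381 CPM in the 4 HCC366 libraries (both before TMM scaling).

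Interferon genes were expressed by both lines with neither uniformly ahead. The study took its interferon signature from genes that differed between lung lines sensitive and insensitive to ADAR KO. It counts both lines among the sensitive ones, so expression in such lines was part of how the list was chosen. Of the 27 genes of the study's interferon signature, 26 were tested, 5 were higher in HCC366 (19.2%, against 29.4% of all genes) and 9 in NCI-H1650 (34.6%, against 32.3%). EIF2AK2 was at 244 and 508 CPM in HCC366 and 143 and 189 CPM in NCI-H1650 (1.22 ± 0.19, adjusted p = 3.12e-06). This call was lost with DESeq2 (1.19, adjusted p = 0.0526), and its size depended on the HCC366 library, with 0.58 without sg2 and 1.62 without sg1. IFI27, an interferon-induced mitochondrial protein, was at 0.815 and 1.52 against 249.6 and 305 CPM (−7.67 ± 0.27, adjusted p = 3.58e-19), and MX1, an antiviral GTPase, at 1.63 and 8.81 against 142 and 359 CPM (−5.20 ± 0.38, adjusted p = 2.83e-12). XAF1, a pro-apoptotic gene, was at 1.63 and 7.59 against 18.6 and 37.9 CPM (−2.25 ± 0.37, adjusted p = 7.21e-06, or −4.05 without HCC366 sg2). SART1, a splicing factor, was higher in HCC366, at 188 and 135 against 50.7 and 59.3 CPM (1.52 ± 0.15, adjusted p = 1.18e-09). The genes of the list thus differed in direction. IFI27 and MX1 stayed below 10 CPM in HCC366, while IFIT1 was at 212 and 530.2 against 325 and 358 CPM and IFI6 at 392.2 and 612 against 364 and 475 CPM.

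The libraries of HCC366 did not agree on the interferon level. In HCC366, 25 of the 26 genes were higher in sg2 than in sg1, with a median log2 ratio of 0.94, against 0.01 over all genes tested. In NCI-H1650 the same ratio was higher in sg2 for 20 of 26 genes, with a median of 0.28. The summed level of the 27 genes was 3036 and 5482 CPM in HCC366 and 5880.2 and 6311 CPM in NCI-H1650. Without HCC366 sg2, 2 signature genes were higher in HCC366 and 17 in NCI-H1650, and without HCC366 sg1 the counts were 11 and 9, so the counts of this list changed with the HCC366 library used. Without NCI-H1650 sg1 and without sg2 they were 3 and 11, and 8 and 9.

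**Figure D2:**
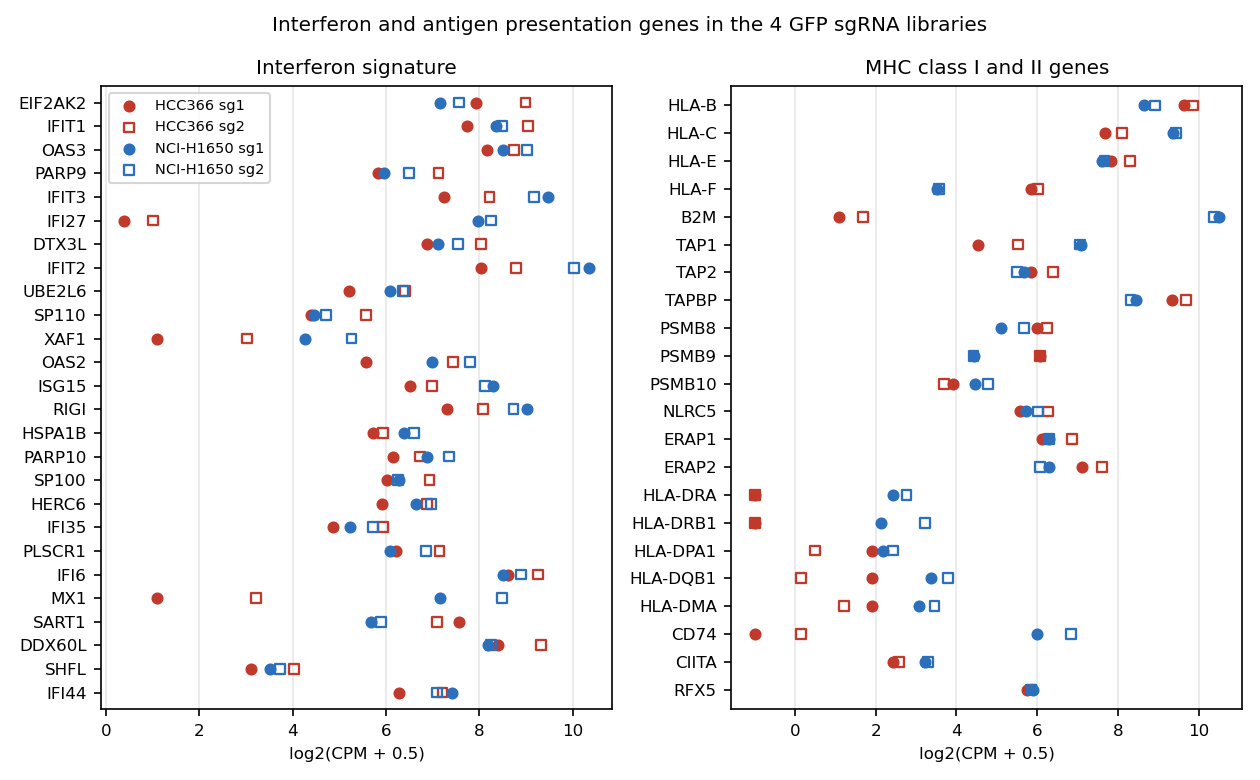
Levels of the tested genes of the interferon signature (left) and of tested MHC class I and class II genes (right), as log2(CPM + 0.5), with 1 point per library. The HCC366 squares (sg2) lie to the right of the HCC366 circles (sg1) for 25 of 26 interferon genes, and B2M separates HCC366 from NCI-H1650 by a wide gap.

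Genes that sense double-stranded RNA and DNA gave 4 of 21 higher in HCC366 and 7 in NCI-H1650. ADAR itself was at 846 and 1167 CPM in HCC366 and 603 and 740.3 CPM in NCI-H1650 (0.59 ± 0.13, adjusted p = 0.000344, or 0.35 without HCC366 sg2). OASL, a 2'-5' oligoadenylate synthetase-like protein, was at 17.1 and 28.5 CPM in HCC366 and 692 and 548.96 CPM in NCI-H1650 (−4.64 ± 0.18, adjusted p = 2.52e-18). RIGI, the RNA helicase sensor RIG-I, was at 158 and 269 against 523 and 425 CPM (−1.10 ± 0.16, adjusted p = 7.93e-07), and DHX58, its relative LGP2, at 6.52 and 12.1 against 26.97 and 32.8 CPM (−1.50 ± 0.25, adjusted p = 7.79e-06). IRF7, the transcription factor that amplifies interferon production, went the other way, at 41.6 and 99.3 against 3.43 and 4.65 CPM (4.26 ± 0.30, adjusted p = 1.24e-12), as did the receptor subunit IFNAR2, at 17.1 and 21.3 against 5.57 and 8.84 CPM (1.47 ± 0.28, adjusted p = 4.98e-05). IFIH1, which encodes the sensor MDA5, was at 166 and 337 against 309.6 and 309 CPM (adjusted p = 0.219). For IFIH1 the HCC366 libraries lay on either side of the NCI-H1650 libraries.

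B2M, the light chain of every MHC class I molecule, is located at chr15:45003556-45011049 (GRCh37, plus strand). It was at 1.63 and 2.73 CPM in HCC366, from 2 and 9 reads, and at 1447 and 1335 CPM in NCI-H1650 (−9.14 ± 0.21, adjusted p = 1.09e-22). Before TMM scaling, B2M was between 1.57 and 3.98 CPM in the 4 HCC366 libraries of the series and at 143 CPM or more in all 16 libraries of the other lines. Class I heavy chains were present in both lines: HLA-B was at 792 and 923 against 402 and 484 CPM, and HLA-C at 205 and 274 against 662 and 693 CPM (−1.48 ± 0.13, adjusted p = 1.04e-10). Of 15 MHC class I genes, 8 were higher in HCC366 and 4 in NCI-H1650. The HCC366 libraries differed here too, with 13 of the 15 higher in sg2 than in sg1 (median log2 ratio 0.42). In NCI-H1650, sg2 was higher for 9 (median 0.06). HLA-F was at 57.1 and 64.1 against 10.9 and 11.4 CPM (2.46 ± 0.19, adjusted p = 6.99e-12), the immunoproteasome subunit PSMB9 at 66.9 and 66.5 against 21.2 and 20.9 CPM (1.66 ± 0.17, adjusted p = 1.53e-09), and the peptide transporter TAP1 at 22.8 and 45.5 against 135 and 134 CPM (−1.83 ± 0.17, adjusted p = 5.91e-10). The low level in HCC366 thus concerned the light chain more than any other class I gene tested. Of 8 MHC class II genes tested, 6 were higher in NCI-H1650 and 0 in HCC366. CD74, the invariant chain, had 2 reads in HCC366 and 63.8 and 113 CPM in NCI-H1650 (ratio 198, 95% counting interval 54.5 to 1635).

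Inflammatory ligands were on the whole higher in HCC366. Of 21 cytokines and chemokines tested, 14 were higher in HCC366 (66.7%, against 29.4% of all genes) and 7 in NCI-H1650. TNF was at 45.7 and 35.8 CPM in HCC366 and had 1 read in NCI-H1650 (ratio 345, 95% counting interval 61.2 to 13721). IL32, a pro-inflammatory cytokine, was at 153 and 155 against 1.498 and 0.93 CPM (6.93 ± 0.24, adjusted p = 2.71e-19), and CCL20, the ligand of CCR6, at 214 and 158 against 1.71 and 1.395 CPM (6.83 ± 0.24, adjusted p = 6.57e-19). The neutrophil chemokine CXCL1 was at 63.6 and 52.5 against 2.997 and 2.79 CPM, and LIF, an IL-6 family cytokine, at 82.4 and 70.4 against 10.1 and 6.28 CPM. IL6 was at 92.2 and 83.2 against 138 and 106 CPM and CCL5, an interferon-responsive chemokine, at 208 and 223 against 421 and 389 CPM. CCL28, a mucosal chemokine, was higher in NCI-H1650, at 11.4 and 9.72 against 35.8 and 28.6 CPM (−1.65 ± 0.24, adjusted p = 1.04e-06). Complement and coagulation genes gave 4 of 9 higher in HCC366 and 3 in NCI-H1650, with C3 at 56.3 and 39.2 against 12.6 and 12.8 CPM (1.83 ± 0.21, adjusted p = 2.06e-08) and TFPI, the tissue factor pathway inhibitor, with no read against 70.6 and 58.6 CPM (at least 97.3-fold).

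Of 16 kallikreins and matrix proteases tested, 7 were higher in HCC366 (43.75%, against 29.4% of all genes) and 5 in NCI-H1650 (31.25%, against 32.3%). MMP14, a membrane-bound metalloproteinase, was at 234 and 187 against 25.3 and 21.9 CPM (3.13 ± 0.15, adjusted p = 4.46e-16), and MMP1, a collagenase, at 42.4 and 17.005 against 2.78 and 2.79 CPM (3.18 ± 0.38, adjusted p = 4.29e-08). KLK5, a skin kallikrein, had no read in HCC366 and 210.4 and 193 CPM in NCI-H1650 (at least 304-fold), and TIMP3, a metalloproteinase inhibitor, had none against 119 and 116 CPM (at least 177-fold).

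EGFR, the receptor tyrosine kinase, was at 1069 and 977 CPM in HCC366 and 938 and 922 CPM in NCI-H1650, a difference that did not pass (0.14 ± 0.11, adjusted p = 0.29). It passed with the offsets for GC content and length, which also re-centre libraries (0.33, adjusted p = 0.0131). Its ligands differed far more, with 7 of 17 EGFR ligands and feedback genes higher in each line (41.2%, against 29.4% and 32.3%). EREG, epiregulin, was at 126 and 117 CPM in HCC366 and 0.642 and 0.233 CPM in NCI-H1650 (7.97 ± 0.29, adjusted p = 9.97e-19). TGFA was at 49.7 and 41.9 against 297 and 246 CPM (−2.60 ± 0.15, adjusted p = 1.43e-14), EPGN, epigen, at 5.71 and 5.16 against 136 and 88.8 CPM (−4.40 ± 0.27, adjusted p = 4.42e-14), and EGF itself had no read in HCC366 and 13.1 and 13.3 CPM in NCI-H1650 (at least 19.8-fold). The ligands named thus differed in direction. The feedback transcription factors ETV4 and ETV5 were at 70.9 and 60.4 against 19.7 and 19.3 CPM (1.72 ± 0.17, adjusted p = 1.67e-09) and at 147 and 142 against 51.2 and 43.2 CPM (1.61 ± 0.14, adjusted p = 7.06e-11). Of 18 growth factor receptors, 5 were higher in HCC366 (27.8%, against 29.4% of all genes) and 7 in NCI-H1650 (38.9%, against 32.3%). INSR, the insulin receptor, was at 70.9 and 63.2 against 13.1 and 20.2 CPM (1.99 ± 0.19, adjusted p = 6.69e-10), FGFR2 had no read in HCC366 and 34.3 and 39.8 CPM in NCI-H1650 (at least 55.7-fold), and ERBB3 was at 5.71 and 4.55 against 25.3 and 25.6 CPM (−2.37 ± 0.29, adjusted p = 5.5e-08).

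Of 22 TGF-beta and BMP pathway genes, 8 were higher in HCC366 (36.4%, against 29.4% of all genes) and 9 in NCI-H1650 (40.9%, against 32.3%). Among the ligands, INHBA, the activin A subunit, was at 219 and 186 CPM in HCC366 and 9.21 and 8.37 CPM in NCI-H1650 (4.50 ± 0.17, adjusted p = 1.88e-18), TGFB2 at 138 and 188 against 20.6 and 19.996 CPM (3.04 ± 0.16, adjusted p = 2.99e-15), and BMP7 had no read in HCC366 and 57.8 and 76.5 CPM in NCI-H1650 (at least 101.2-fold). The receptors split: TGFBR1 was at 320.5 and 288 against 89.9 and 96.3 CPM (1.70 ± 0.12, adjusted p = 2.18e-12) and TGFBR2 at 49.7 and 65.9 against 257 and 269 CPM (−2.13 ± 0.14, adjusted p = 2.84e-13). WNT pathway genes gave 5 of 22 higher in HCC366 and 12 in NCI-H1650. The secreted WNT inhibitors NOTUM and DKK1 were higher in HCC366, with DKK1 at 129 and 109.6 against 28.04 and 30.7 CPM (2.00 ± 0.15, adjusted p = 5.15e-12) and NOTUM at 15.5 and 14.3 CPM against 3 reads in NCI-H1650 (ratio 43.7, 95% counting interval 14.3 to 217). The ligand WNT5A had no read in HCC366 and 47.3 and 44.2 CPM in NCI-H1650 (at least 68.9-fold). The ligand WNT5B stood the other way, at 42.5 and 35.5 against 8.91 and 15.1 CPM before TMM scaling. RNF43, a feedback inhibitor, was at 1.63 and 2.13 against 24.6 and 27.7 CPM (−3.69 ± 0.35, adjusted p = 6.66e-10). NOTCH pathway genes gave 2 of 12 higher in HCC366 and 5 in NCI-H1650. NOTCH2 was at 1185 and 1157 against 526 and 517 CPM (1.17 ± 0.11, adjusted p = 5.56e-10) and NOTCH3 at 0.815 and 1.52 against 145 and 191 CPM (−6.95 ± 0.30, adjusted p = 2.54e-17), so these receptors differed in opposite directions.

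**Figure D3:**
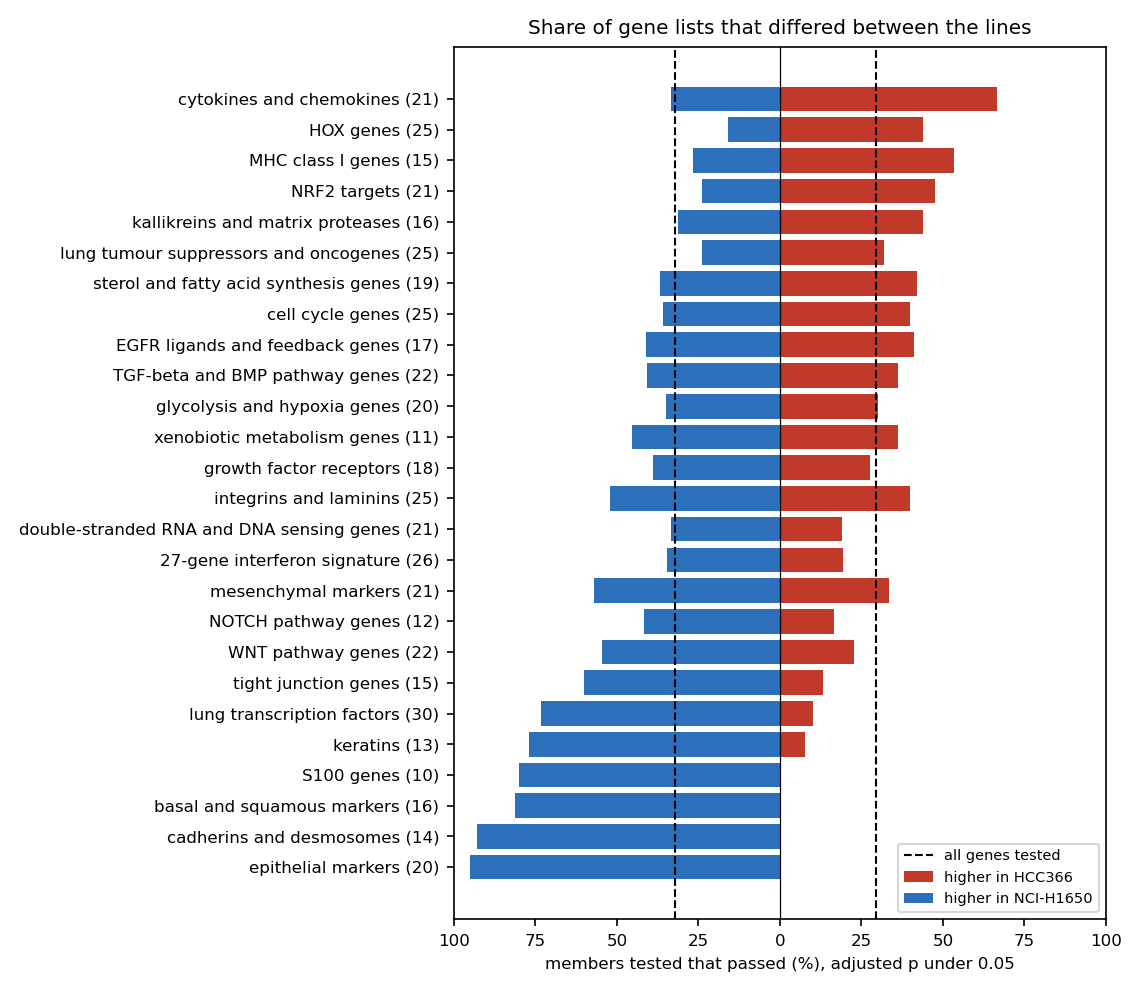
Share of the tested members (number in brackets) of gene lists with at least 10 of them that were higher in HCC366 (red, to the right) or in NCI-H1650 (blue, to the left), with the shares over all genes tested as dashed lines (29.4% and 32.3%). Epithelial markers (95% higher in NCI-H1650) and cytokines and chemokines (66.7% higher in HCC366) stand at the ends of the plot.

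Tumour suppressor genes and oncogenes gave 8 of 25 higher in HCC366 (32%, against 29.4% of all genes) and 6 in NCI-H1650 (24%, against 32.3%). CDKN2A, the gene of the cell cycle inhibitor p16, at chr9:21967751-21995300 (minus strand), was at 21.2 and 26.1 CPM in HCC366 and had no read in NCI-H1650 (at least 70.8-fold, adjusted p = 2.99e-12), including in its ADAR KO libraries. CDKN2B, its neighbour and relative, was at 16.3 and 18.8 CPM against no read (at least 52.5-fold). MTAP, the methylthioadenosine phosphorylase gene beside them at chr9:21802635-21937650, was at 22.8 and 23.4 against 2.14 and 2.09 CPM (3.43 ± 0.32, adjusted p = 5.14e-10). Along 9p21 the neighbours on both sides were higher in NCI-H1650: FOCAD was at 39.1 and 39.8 against 112 and 102 CPM (−1.43 ± 0.15, adjusted p = 3.99e-09) and ELAVL2 at 2.45 and 5.47 against 22.1 and 23.5 CPM (−2.29 ± 0.31, adjusted p = 2.98e-07). In all, 3 of 8 genes tested at 9p21 were higher in HCC366 and 5 in NCI-H1650, and the 3 were CDKN2A, CDKN2B and MTAP. STK11, the LKB1 kinase gene, was lower in HCC366, at 1.63 and 3.95 against 40.03 and 44.2 CPM (−3.66 ± 0.29, adjusted p = 1.91e-11), as was SMARCA4, the BRG1 remodelling ATPase, at 39.96 and 39.8 against 249 and 253 CPM (−2.65 ± 0.14, adjusted p = 3.27e-15).

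Of 25 cell cycle genes, 10 were higher in HCC366 (40%, against 29.4% of all genes) and 9 in NCI-H1650 (36%, against 32.3%). At 2-fold or more there was 1 in each direction (4%, against 15.7% and 18.5% of all genes). TYMS, thymidylate synthase, was at 73.4 and 84.7 against 34.04 and 37.4 CPM (1.17 ± 0.15, adjusted p = 1.85e-07) and the replication helicase subunit MCM3 at 347 and 251 against 159 and 158 CPM (0.89 ± 0.13, adjusted p = 1.94e-06). The mitotic kinases PLK1 and AURKA were in contrast higher in NCI-H1650, with PLK1 at 58.7 and 36.4 against 181 and 180.4 CPM (−2.03 ± 0.16, adjusted p = 1.45e-11) and AURKA at 139 and 99.6 against 236 and 208 CPM (−0.94 ± 0.14, adjusted p = 1.7e-06).

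Metabolic genes differed gene by gene. GSTP1, a glutathione transferase, was at 150.1 and 130.3 CPM in HCC366 and had 1 read in NCI-H1650 (ratio 1217, 95% counting interval 218 to 48145), and before TMM scaling it was at most 0.217 CPM in the 4 NCI-H1650 libraries of the series and at least 31.9 CPM in the other 16. The 31.9 CPM came from the second GFP library of the line NCI-H196, which held only 62679 reads on genes. One read was worth 15.95 CPM there. Xenobiotic metabolism genes gave 4 of 11 higher in HCC366 (36.4%, against 29.4% of all genes) and 5 in NCI-H1650 (45.5%, against 32.3%). ALDH1A3, a retinaldehyde dehydrogenase, was at 535 and 465 against 86.7 and 81.6 CPM (2.56 ± 0.13, adjusted p = 6.61e-16). CYP1A1, a target of the aryl hydrocarbon receptor, was at 1.63 and 0.911 against 26.1 and 20.9 CPM (−4.37 ± 0.42, adjusted p = 7.69e-10). NRF2 targets gave 10 of 21 higher in HCC366 and 5 in NCI-H1650. TALDO1, an enzyme of the pentose phosphate pathway, was at 119.9 and 123 against 39.2 and 42.1 CPM (1.59 ± 0.14, adjusted p = 1.29e-10). Glycolysis and hypoxia genes gave 6 of 20 higher in HCC366 (30%) and 7 in NCI-H1650 (35%), near the 29.4% and 32.3% of all genes. LDHA, lactate dehydrogenase, was at 2858 and 3299.6 against 846 and 794 CPM (1.91 ± 0.11, adjusted p = 2.7e-14), HK2, hexokinase 2, at 61.2 and 73.2 against 195.7 and 194 CPM (−1.50 ± 0.13, adjusted p = 1.71e-10), and EGLN3, an oxygen-sensing hydroxylase, at 0.815 and 2.73 against 46.7 and 53.7 CPM (−4.49 ± 0.31, adjusted p = 9.92e-13). Sterol and fatty acid synthesis genes gave 8 of 19 higher in HCC366 (42.1%, against 29.4%) and 7 in NCI-H1650 (36.8%, against 32.3%). DHCR7, the last enzyme of cholesterol synthesis, was at 135 and 114 against 38.3 and 47.4 CPM (1.52 ± 0.15, adjusted p = 9.25e-10), whereas SCD, the stearoyl-CoA desaturase, was at 60.3 and 45.9 against 334 and 414 CPM (−2.87 ± 0.15, adjusted p = 3.42e-15).

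The 7 ATF4 targets that the study followed after ADAR KO gave 1 higher in HCC366 and 2 in NCI-H1650. These were 14.3% and 28.6%, against 29.4% and 32.3% of all genes. TRIB3, a stress-induced pseudokinase, was at 36.7 and 24.6 CPM in HCC366 and 100.6 and 107 CPM in NCI-H1650 (−1.86 ± 0.17, adjusted p = 3.08e-10), ATF3, a stress transcription factor, at 35.9 and 38.3 against 110.2 and 83.5 CPM (−1.37 ± 0.17, adjusted p = 5.45e-08), and GADD45B at 64.4 and 55.6 against 32.3 and 33.5 CPM (0.84 ± 0.16, adjusted p = 6.36e-05).

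The difference between the lines was also uneven along the genome. On chromosome 13 the median log2 fold change of 250 genes was 1.82, with 76.0% higher in HCC366 and 7.20% higher in NCI-H1650, against 29.4% and 32.3% of all genes. RB1, a tumour suppressor gene on chromosome 13 named after its values were seen, was at 249.5 and 297 against 41.3 and 44.9 CPM (log2 fold change 2.68 ± 0.14 (SE), adjusted p = 9.59e-16). On chromosome 11 the median of 791 genes was 0.75, with 61.4% higher in HCC366. Chromosomes 5, 15 and 20 leaned toward NCI-H1650, with medians of −0.57, −0.46 and −0.44 and with 54.9%, 50.4% and 51.9% of genes higher in that line. Without each library in turn, the chromosome 13 median ranged from 1.65 to 1.88 and the chromosome 5 median from −0.68 to −0.56. Over all chromosomes, 50 medians recomputed without 1 library or with the re-centring offsets for GC content and length moved by more than the SD between libraries and 60 did not. In the ADAR KO libraries the medians were 1.43 on chromosome 13, 0.77 on chromosome 11 and −0.78 on chromosome 5. Genes along a chromosome are not independent, and DNA copy number was not analysed here.

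**Figure D4:**
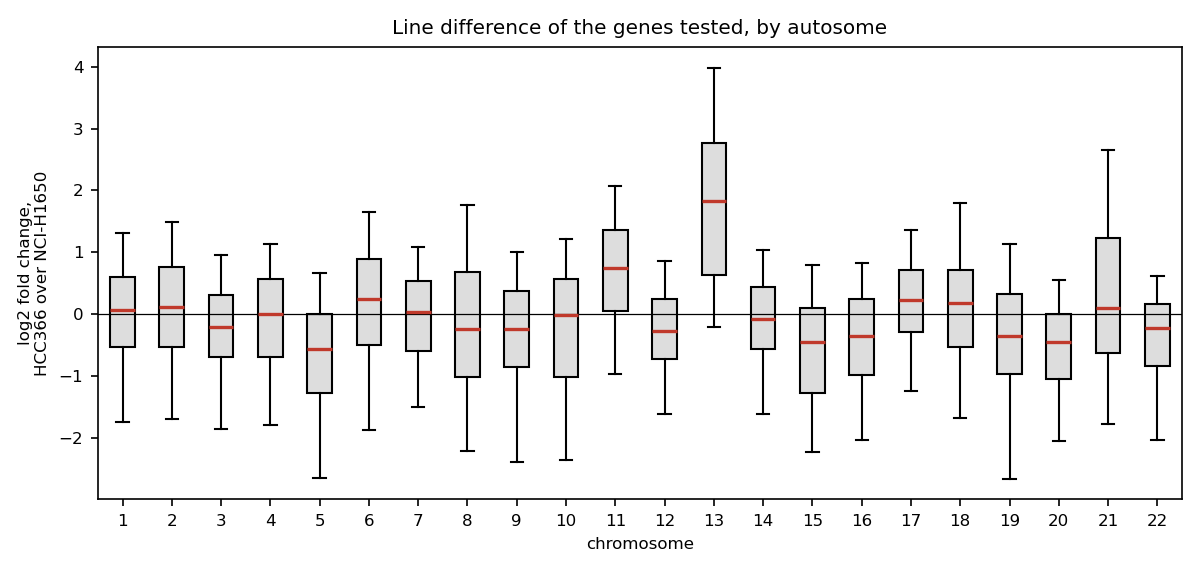
Log2 fold change (HCC366 over NCI-H1650) of the genes tested on each autosome, with boxes for the quartiles, red lines for medians and whiskers at the 10th and 90th percentiles. Chromosome 13 (median 1.82) lies above the other autosomes and chromosome 5 (median −0.57) is the lowest.

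The 4 ADAR KO libraries of the same lines gave a second set for the line difference, with 13964 genes tested. One of them stood apart: in HCC366 ADAR KO sg2, reads with more than 1 alignment made up 85.6% of the library, against 40.0% to 49.6% in the other 3, and GC content and length explained 44.1% of how its log2 ratio to sg1 varied over genes. Their part in the values of this set was not tested. In the set 2028 genes (14.5%) were higher in HCC366 and 2274 (16.3%) in NCI-H1650, 30.8% in either direction. Of all genes, 29.9% also differed at least 2-fold. HCC366 made up 47.1% of the calls, or 58.1% with the offsets for GC content and length, which also re-centre libraries (4118 and 2972). Without NCI-H1650 ADAR KO sg1 the counts were 484 and 831, without sg2 488 and 781, without HCC366 ADAR KO sg1 4217 and 4834, and without sg2 3013 and 3491, so these counts rested on the libraries used. Over 13474 genes tested in both sets, the log2 fold changes correlated across genes with a Pearson r of 0.895 and a Spearman rho of 0.80. Genes are not independent, and the sets share their cell lines but no library. Of genes called at 2-fold or more in the GFP libraries and tested in both, 96.6% of 1935 higher in HCC366 and 95.1% of 2526 higher in NCI-H1650 had the same sign in the ADAR KO libraries, against 79.3% of all 13474 genes. Of the same genes 67.4% in either direction were also called the same way there, and 2 and 8 were called the opposite way. CDH1 and B2M had log2 fold changes of −7.56 and −8.60 there, and KRT19 again had no read in HCC366 and MAGEA4 none in NCI-H1650.

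The HCC366 libraries differed in their relation to GC content and length. A smooth fit on both explained 4.85% of how the log2 ratio of HCC366 sg2 to sg1 varied over 14080 genes, 11.2% over the 11070 genes used to compare all 4 HCC366 libraries, and 2.51% over 14080 genes for NCI-H1650. In HCC366 the median ratio fell from 0.21 in the 10% of genes with the lowest GC content to −0.12 in the 10% with the highest, and in NCI-H1650 it went from −0.05 to 0.08. Against the mean of the other 3 HCC366 libraries, sg2 reached 35.5% over these 11070 genes, but that mean holds ADAR KO sg2, which itself reached 51.7% against its own others. Of the mean difference between the lines, GC content and length accounted for 0.277%, and of the difference of HCC366 sg2 alone from NCI-H1650 for 0.726%. The offsets for both shifted the median log2 fold change of all genes by 0.15 toward HCC366. They turned the balance of calls from 4182 and 4593 to 5019 and 3974 (higher in HCC366 and in NCI-H1650). In the main fit and with the offsets 8131 genes were called, all in the same direction. The offsets also re-centred each library on its mean log2 ratio over genes. With them the median log2 fold change ran from 0.02 to 0.18 over the bins of GC content. How much of the shift came from re-centring was not tested.

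**Figure D5:**
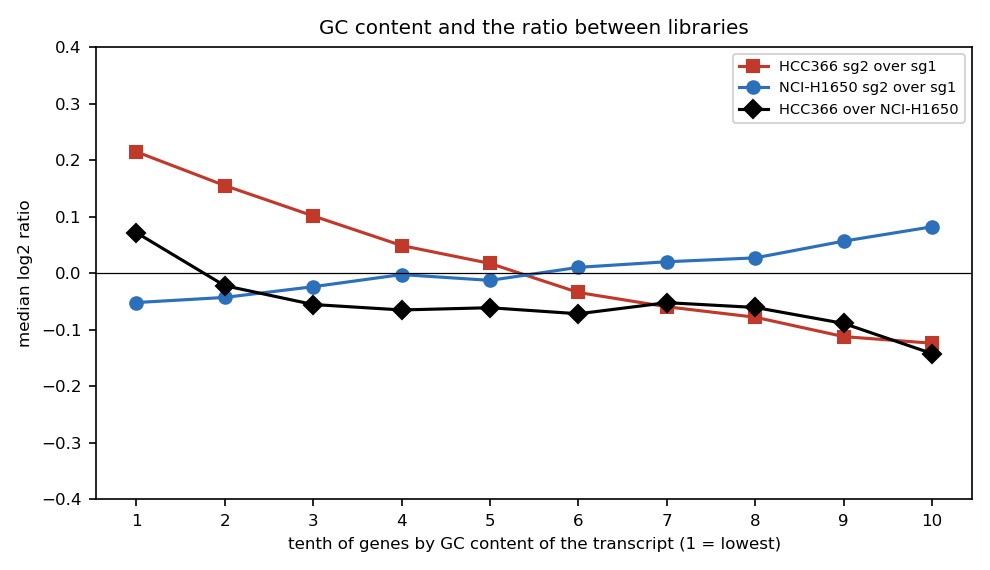
Median log2 ratio in 10 bins of genes ordered by GC content, for HCC366 sg2 over sg1 (red squares), NCI-H1650 sg2 over sg1 (blue circles) and HCC366 over NCI-H1650 (black diamonds). The HCC366 ratio falls from 0.21 to −0.12 while the line difference runs from 0.07 to −0.14.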

How the data were processed

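RNA was depleted of ribosomal RNA, made into directional libraries and sequenced as read pairs. The authors aligned the reads to hg19 with STAR and deposited HTSeq read counts per gene. The annotation release and the strand setting are not given in the sources used here. Lines that name no gene (no feature, ambiguous, not unique) made up 56.9% to 69.3% of the 4 GFP libraries and were left out. TMM scaling, filterByExpr and the quasi-likelihood F-test of edgeR 4.0.16 (R 4.3.3) were applied to the 4 GFP libraries, with line as the only term and 2 residual degrees of freedom. Scripts were tested on simulated data. CPM are TMM-scaled, and intervals and floors cover counting error only.

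The rule for named genes took protein-coding genes with an adjusted p under 0.05 and 10 CPM or more in both libraries of the higher line. It kept the 12 with the largest difference per direction, up to 3 per list and direction, and 13 fixed genes. KRT8, KRT18, ELF3, SPINT1, DSP, JUP, FN1, TGFBI, IFIT1, IFI6, IFIH1, HLA-B, CXCL1, LIF, IL6, CCL5 and RB1 were added after their values were seen. Some named genes and 1 list are not reported here. Libraries and lists were chosen with earlier results of these data known.

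Alternatives were DESeq2 (1.42.0) and its size factors, upper-quartile scaling, no filter, a fit of all 20 libraries, smooth offsets for GC content and length (mgcv 1.9.3), a replicate block, and each library left out. The smooth offsets kept their intercept, so they also re-centred each library on its mean log2 ratio over genes.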

Additional observations from a re-analysis of the deposited data

Results flagged for a closer look

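The line difference had opposite signs in the GFP and ADAR KO libraries for 3 named genes, with each HCC366 library on the same side of both NCI-H1650 libraries within a set. TRIB3 had a log2 fold change of −1.86 in the GFP libraries and 1.11 in the ADAR KO libraries. ATF3 had −1.37 and 0.84. JAG1, a NOTCH ligand, had 0.58 and −0.15. These differences between the sets were not tested. HCC366 ADAR KO sg2 stood apart, with 85.6% of its reads aligned more than once, and its part in them was not tested.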

How the results depend on the processing

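The counts of genes that differed between the lines stayed within 1.5 times of those reported under every alternative run on the GFP libraries. In the ADAR KO libraries they were 3722 (higher in HCC366) and 4559 (higher in NCI-H1650) in a fit of all 20 libraries, 4118 higher in HCC366 with offsets for GC content and length, and 3723 with the replicate block and these offsets together. Leaving out 1 library in turn gave 484 to 4217 higher in HCC366 and 781 to 4834 higher in NCI-H1650. The causes were not tested. Over all genes, same-numbered GFP sgRNAs did not deviate together (correlation 0.0278), and the replicate block gave 4020 and 4473 genes there. For the interferon signature, sg2 was above sg1 in both lines (25 and 20 of 26 genes), and the block gave 4 and 13. In the ADAR KO libraries, crossed numbers, added after seeing the data, gave 2121 and 2572, and the replicate block 1505 and 1857. Of 190 named genes tested, 176 had the same call and direction under every alternative, and none reversed, while 8 lost their call with DESeq2, 9 without HCC366 sg2 and 7 without NCI-H1650 sg2. KRT7 lost its call in the fit of all 20 libraries (adjusted p = 0.0896, edgeR) and without NCI-H1650 sg1 or sg2 (0.0681 and 0.0783). Of 960 recomputed list counts, 97 moved by over 1.5 times, and of the chromosome medians 50 moved by more than the SD between libraries and 60 did not. With 3 reads over a line as the floor, a gene with no read could still have had up to 0.664 CPM in HCC366 or 0.334 CPM in NCI-H1650.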
